A study of Mus musculus with 63 samples.

Results

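Open chromatin was compared between mouse embryonic fibroblasts (mEFs) of the genotype Chaserr-/- Chd2m/m (the double mutant) and WT mEFs from the same pregnancy. The comparison used 6 of the 12 ATAC-seq libraries, chosen by their labels among the 63 samples of the study: 3 double mutant and 3 WT libraries, each with its own list of peaks on the mm9 genome. The study asked what the loss of the long noncoding RNA Chaserr does to its neighbour Chd2 and to other genes, and the double mutant shows which changes remain when the Chd2 gene is itself disrupted. mEFs are primary cultures grown from the body of E13.5 embryos without the head and liver. The double mutant mice were made by injecting sgRNA 2 and sgRNA 3 into Chd2m/m embryos to remove the promoter and first exon of Chaserr, and the Chd2m allele came from a founder with a frameshift in the third exon of Chd2. The frameshift allele is hypomorphic rather than null. Libraries of Chaserr-/- mEFs and of their own WT mEFs from another pregnancy (3 and 3) were used only where the double mutant was set beside them. mEFs of each background are described as taken from separate embryos, but the labels tie no library to an embryo. In the ATAC-seq comparison with WT, p-values measure the spread between libraries of one pregnancy. The titles of the RNA libraries name crosses and no shared pregnancy.

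CHD2 is a chromatin remodeller that uses ATP to move and space nucleosomes and that is linked to actively transcribed genes. Chaserr is transcribed from the same strand as Chd2 and ends upstream of it. In ATAC-seq the Tn5 transposase cuts and tags DNA that is not covered by nucleosomes, so that promoters and enhancers in use appear as peaks.

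The guides and the Chaserr promoter show what was altered in the double mutant, and are given because the peaks at this locus check the Chaserr deletion in each library. The frameshift of Chd2m was not checked, since a list of peaks holds no sequence. Guides are written 5′ to 3′ with the NGG that follows them in the genome in capitals, and were found at mm9 chr7:80702568-80702587 (minus strand) for sgRNA 2, chr7:80703696-80703715 (plus strand) for sgRNA 3 and chr7:80664375-80664394 (plus strand) for the Chd2 guide. The Chd2 guide lay in exon 3 of the 39 exons of the transcript Chd2-001. The promoter of Chaserr (chr7:80703420-80703719, minus strand) is given with the site of sgRNA 3 in capitals.
sgRNA 2: gaggtgggaacccatctttgGGG
sgRNA 3: agtgaaactctgggtttgcgGGG
Chd2 guide: agctatccgttccttcttagAGG
Chaserr promoter: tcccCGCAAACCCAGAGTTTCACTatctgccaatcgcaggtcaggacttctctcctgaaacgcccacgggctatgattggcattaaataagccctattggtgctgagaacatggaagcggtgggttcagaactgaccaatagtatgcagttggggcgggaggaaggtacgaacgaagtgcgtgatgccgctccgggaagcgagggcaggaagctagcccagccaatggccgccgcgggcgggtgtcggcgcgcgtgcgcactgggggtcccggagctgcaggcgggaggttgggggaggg

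The interval between both cut sites (chr7:80702571-80703712, 1142 bases) held a peak in 3 of 3 WT lists and in 0 of 3 double mutant lists. The fold enrichment of a peak, which is its signal at the summit relative to the local background, was 14.7 in WT 1, 12.6 in WT 2 and 11 in WT 3 at the Chaserr promoter. These peaks ranked high within their lists, above 93.8%, 97.1% and 89% of the peaks of WT 1, WT 2 and WT 3. The same interval held a peak in 3 of 3 WT lists of the other pregnancy and in 0 of 3 Chaserr-/- lists. Double mutant 3 had a peak outside the deleted interval, which started 193 bases beyond the cut of sgRNA 3 (chr7:80703905-80704488) with a fold enrichment of 7.85. Because this peak touched those of WT 1 and WT 3, the merged region was not counted among those found in WT alone.

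**Figure D1:**
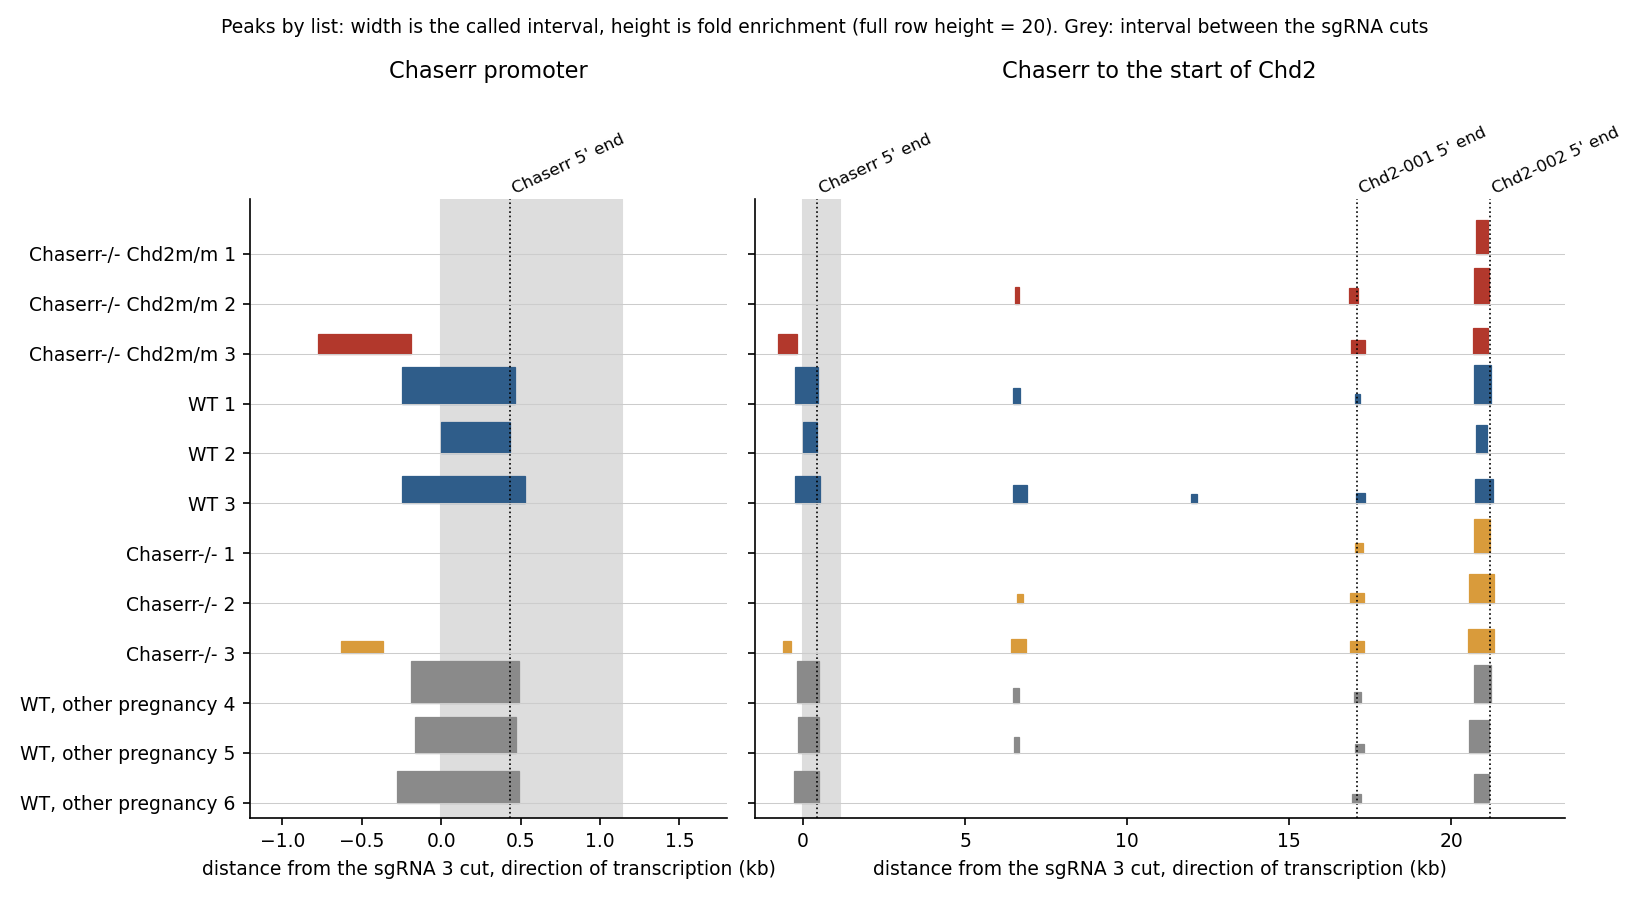
Peaks from the Chaserr promoter to the first annotated starts of Chd2 in 12 lists, as distance in kb from the cut of sgRNA 3. Each box is a peak, its width the called interval and its height the fold enrichment (a full row is 20), and grey marks the interval between the cuts, which holds peaks in the 6 WT lists and in none of the 6 mutant lists.

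Chd2 had peaks at 2 annotated starts. The peak open in all 6 lists lay upstream of the short transcript Chd2-002 (2 exons, 5′ end at chr7:80682507), 307 bases from that start. The 5′ end of the full-length transcript Chd2-001 (chr7:80686632), 16649 bases from the Chaserr 5′ end, had a weaker peak in 4 of 6 lists. At the Chd2-002 promoter the fold enrichment was 13.51, 14.21 and 10.17 in double mutants 1 to 3 and 15.39, 11.38 and 9.56 in WT 1 to 3. The groups overlapped, with the highest value in WT 1 and the lowest in WT 3. On the normalized log2 scale used throughout, in which each list was brought to one common distribution by rank, the difference (double mutant minus WT) was -0.05 with an SE of 0.219 and did not pass (limma, adjusted p = 1). The Chd2-001 peak was called only in the 4 long lists, at 6.16 in double mutant 2, 5.28 in double mutant 3, 3.67 in WT 1 and 4.28 in WT 3. Both double mutant values lay above both WT values there. The region was not in the main fit, since 2 lists had no peak. It was part of the fit without both short lists, which called 0 of 42194 regions (limma). The RNA of Chd2 differed between the groups. It stood at 133, 133 and 153 CPM (counts scaled to the size of the library) in the double mutant and at 37.8, 37.8 and 38.4 CPM in WT libraries, a log2 difference of 1.88 (edgeR, adjusted p = 8.78e-06). Chaserr RNA was 0, 0.0596 and 0.098 CPM in the double mutant against 41.8, 38.5 and 34.6 CPM in WT (edgeR, adjusted p = 1.61e-07), so the deletion was seen in both assays.

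The Chd2-002 promoter window of 201 bases around the summit (mm9 chr7:80682714-80682914, minus strand) is shown because this region was open in every list while the RNA differed between groups. Capitals mark GC boxes (GGGCGG), the NFY motif (CCAAT) and the CREB motif (TGACGTCA), each searched on both strands, as was the NRF1 motif (GCGCATGCG).
Chd2-002 promoter: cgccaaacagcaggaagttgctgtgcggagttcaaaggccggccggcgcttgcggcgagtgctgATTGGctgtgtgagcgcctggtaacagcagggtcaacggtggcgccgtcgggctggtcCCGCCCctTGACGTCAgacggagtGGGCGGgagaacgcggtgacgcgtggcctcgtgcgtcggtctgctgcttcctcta
The window held 2 GC boxes, 1 CCAAT, 1 CREB motif and no NRF1 motif, and none of these matches overlapped. Windows of the same length around all 112140 merged regions held a GC box in 13.9%, CCAAT in 24% and the CREB motif in 0.729%. Among the promoter regions with a peak in every list these shares were 64.9%, 40.8% and 3.43%.

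The lists differed in length far more within each group than between groups. On chromosomes 1 to 19 and X, double mutants 1, 2 and 3 had 28108, 80419 and 81735 peaks, and WT 1, 2 and 3 had 65020, 18483 and 65434. One list of each group was therefore short. The means were 63421 ± 30589 (SD, n = 3) and 49646 ± 26988 (SD, n = 3), a difference within the spread of the lists (exact permutation test, two-sided p = 0.5, where 0.1 is the smallest possible). The share of peaks within 300 bases of an annotated start site was 35.6%, 19.8% and 18.8% in the double mutant and 22.2%, 41.6% and 22.4% in WT, highest in both short lists. Its mean was 24.7 ± 9.42% in the double mutant and 28.7 ± 11.1% in WT (SD, n = 3, exact permutation test, two-sided p = 0.5). The median fold enrichment of a list lay between 6.24 and 7.0. The names of the peaks carry a sample number, which was 13 to 16 for replicates 1 and 2 of both groups and again 13 and 14 for WT 3 and double mutant 3. In the lists of replicate 3 the highest fold enrichment was 49.8 (double mutant 3) and 49.6 (WT 3), against 63.5 to 76.1 in the other 4. The same names call double mutants 1, 2 and 3 ko0, ko1 and ko3, and the deposited label was followed for each list. The read depth of the libraries was not used here, so an uneven depth and an uneven quality cannot be told apart.

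**Figure D2:**
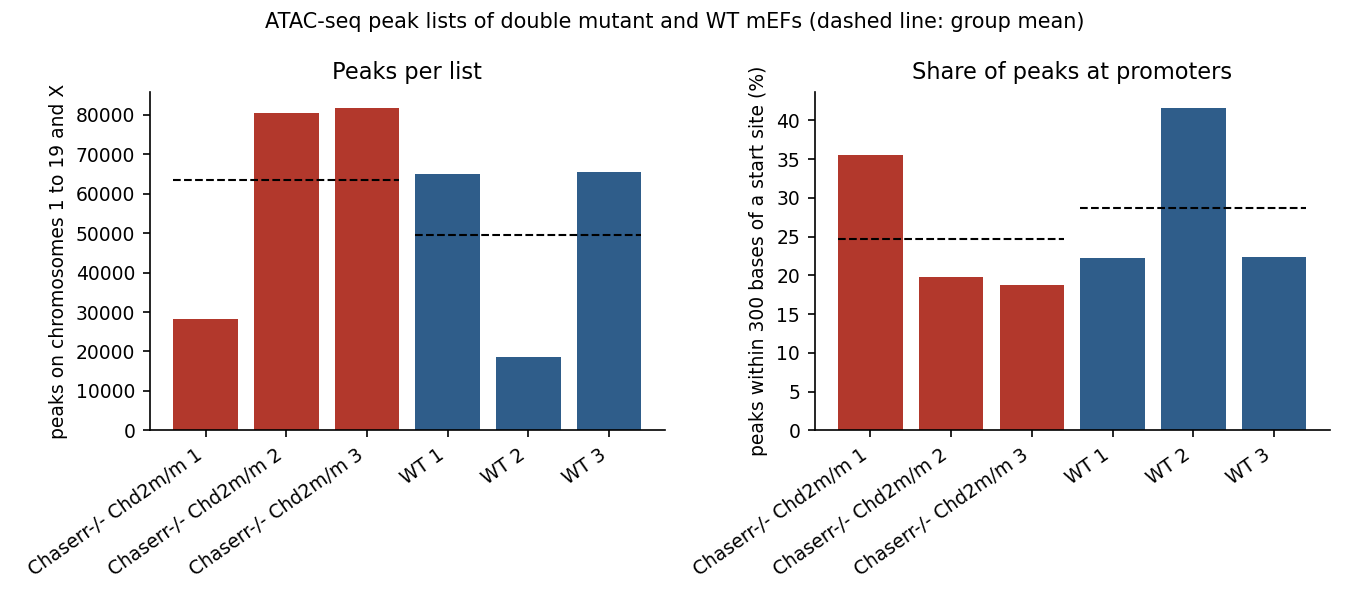
Bars give the number of peaks on chromosomes 1 to 19 and X (left) and the percentage of them within 300 bases of a start site (right) in each list, with the group mean dashed. Double mutant 1 and WT 2 have the fewest peaks and the highest promoter shares (35.6% and 41.6%).

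The labelled cell type was checked against marker genes by the peaks at their promoters. All 20 fibroblast genes had a promoter peak in at least 3 of the 6 lists, and 9 had one in every list, among them the collagen genes Col5a1 and Col6a2, Fn1 (fibronectin) and the mesenchymal transcription factors Twist1 and Snai2. Snai2 had a fold enrichment of 11.3, 10.8 and 9.6 in the double mutant and of 9.7, 10.4 and 8.89 in WT, so the ranges overlapped. Over all 22208 protein-coding genes, 35.4% had a promoter peak in every list and 35.8% had none. No gene of the macrophage (17), skeletal muscle (14), endothelial (10) or neural (12) lists had a peak in every list. Peaks in some lists were found at 8 macrophage genes (Cd14 in 4 lists), 2 muscle genes (Des in 3), 4 endothelial genes (Egfl7 and Esam in 5) and 6 neural genes (Tubb3 in 5 and 4 others in 4). Csf1r, Ptprc, Myod1, Pecam1, Cdh5 and Sox10 had none in any list. In the same lists of genes, the endothelial Kdr and Tek and the neural Sox2, Nes, Olig1 and Mbp had a peak in 4 lists. The chondrocyte genes Col2a1 and Sox9 were open in every list, as 2 of 11. The deposited protocol text for these libraries describes dorsal root ganglia while the source is given as mEF, and the neural list as a whole had peaks in some lists at 6 of 12 genes and in none at the other 6. RNA of macrophage genes was present in the WT libraries used for RNA, at a median of 15.7 FPKM over the 17 genes. In such bulk libraries fewer cells of a type and less RNA per cell cannot be told apart.

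The 6 lists merged into 112140 regions, of which 16767 lay at promoters, and 12622 had a peak in every list (7262 at promoters, 5360 elsewhere). No region of these 12622 was called as changed in fold enrichment (limma, 0% at an adjusted p under 0.05), and neither was any of the 7262 promoters (0%). At an unadjusted p under 0.05 there were 158 regions (1.25%), 93 higher and 65 lower in the double mutant, of which 62 were promoters. Without any difference, a share of about 0.05 would fall under this cutoff. The observed share was lower, so the fit was conservative, and the lack of calls does not show that regions were unchanged. With list length as a term the share was 3.39%, also without a call. The 5th and 95th percentiles of the difference were -0.29 and 0.302, 99% of regions differed by less than 0.5, and the median was -0.004. The median SE was 0.214, which gives an unadjusted 95% interval of 0.455 on either side in a typical region, or 1.37-fold. A call adjusted over all regions needed more than this, since a difference of 0.82 at the promoter of Atp4a had an adjusted p of 1. Without both short lists 0 of 42194 regions were called and 1344 (3.19%) had an unadjusted p under 0.05, and without replicate 3 of both groups 0 of 13268 and 144. The normalized values of all 3 double mutant libraries lay above all 3 WT libraries in 374 regions (2.96%) and below them in 302 (2.39%). Fold enrichment is a ratio at the summit and not a count of reads, and a wide or a much taller peak need not have a higher ratio.

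**Figure D3:**
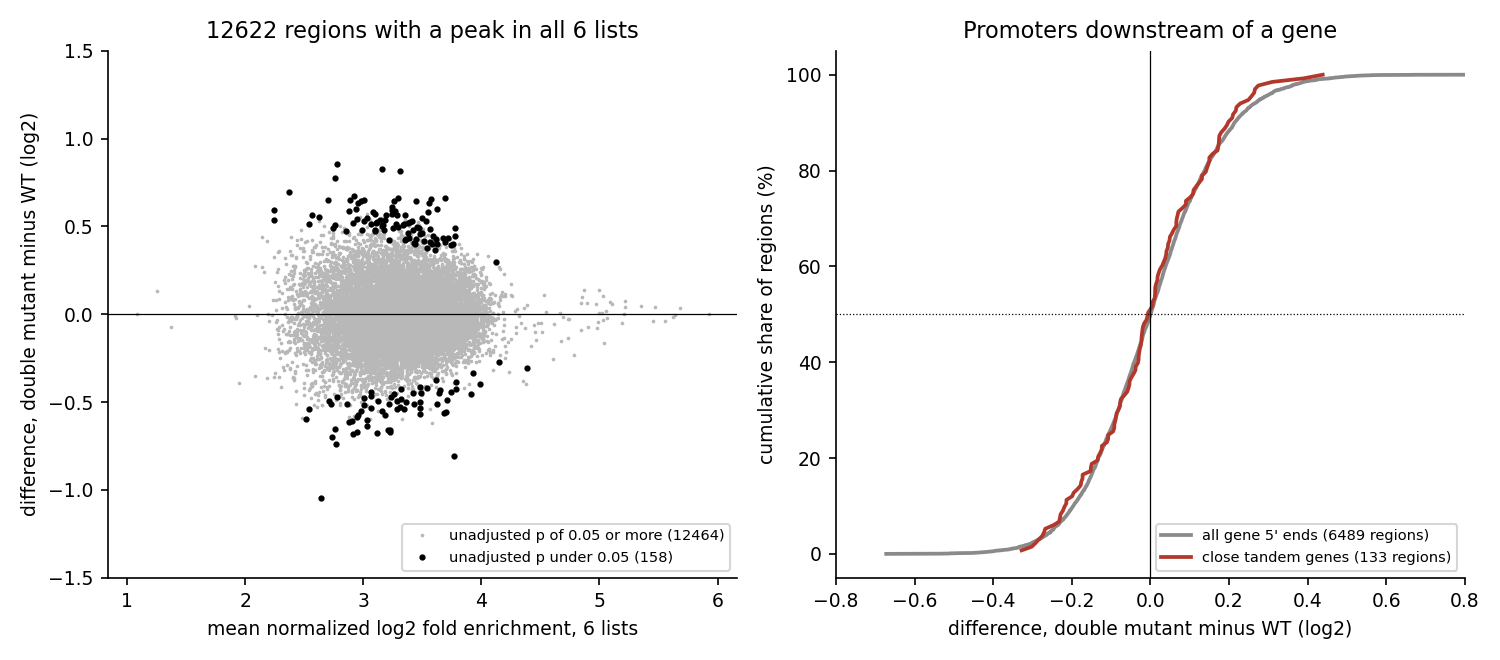
Left, the difference in normalized log2 fold enrichment (double mutant minus WT) against the mean level for 12622 regions, with the 158 regions of unadjusted p under 0.05 in black. Right, the cumulative share of regions by the difference at the 5′ ends of genes, for close tandem genes (red, 133 regions) and for all genes (grey, 6489 regions), where both curves cross 50% near 0.

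The promoters with the smallest unadjusted p among those whose groups did not overlap are given as a description, since none passed the adjusted test (limma, adjusted p = 1 for each). Of those higher in the double mutant, Atp4a, the catalytic subunit of the gastric proton pump, led the list (mm9 chr7:31502046-31502896). Its fold enrichment was 12.6, 17 and 12.4 in the double mutant and 8.68, 5.13 and 8.77 in WT. All 3 double mutant values lay above the highest WT value also before normalization. The normalized level was 3.71 ± 0.155 against 2.90 ± 0.159 (SD, n = 3), a difference of 0.82 with an SE of 0.196 (limma, unadjusted p = 0.000799). Gemin8, part of the SMN complex that assembles spliceosomal particles, had 14.8, 18.6 and 17.5 against 16.4, 6.48 and 9.05, a difference of 0.66 (SE 0.187). Before normalization WT 1 lay above double mutant 1. The shared promoter of Uqcr10, a subunit of respiratory complex III, and Zmat5 had 12.3, 12.8 and 12.7 against 9.87, 3.77 and 9.45, a difference of 0.82 (SE 0.277). WT 2 was lowest, and the difference was 0.46 without it and 0.29 without both short lists. Zfp318 (0.52) and Prelid2 (0.49) were also higher by rank.

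The Atp4a promoter window (mm9 chr7:31502491-31502691, plus strand) is shown as the region with the smallest p, with GC boxes and CCAAT in capitals. It held 2 of each and no CREB or NRF1 motif, with no overlap.
Atp4a promoter: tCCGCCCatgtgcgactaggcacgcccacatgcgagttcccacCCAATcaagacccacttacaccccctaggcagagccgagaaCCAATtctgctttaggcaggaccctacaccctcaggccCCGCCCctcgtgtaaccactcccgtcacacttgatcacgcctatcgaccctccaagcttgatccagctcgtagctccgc
Atp4a was not among the genes tested in RNA.

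Of the promoters lower in the double mutant, Slc35e3, of a family of sugar transporters, had a fold enrichment of 4.79, 9.34 and 10.2 against 15.6, 7.77 and 11.9 in WT. These values overlapped as deposited and separated only by rank, with a difference of -0.67 (SE 0.216, limma, unadjusted p = 0.00693). Psmd12, a subunit of the proteasome regulatory particle, had 6.94, 11.2 and 11.3 against 15.7, 8.39 and 15.3, a difference of -0.53 (SE 0.19). Ankrd24 had 7.05, 14.1 and 12 against 18.5, 9.81 and 14.8, a difference of -0.51 (SE 0.175). In both genes double mutant 1 and WT 2, the short lists, had the lowest raw values of their groups. The others were Srsf11, a splicing factor (-0.57), the zinc finger gene Zik1 (-0.45) and Supt5h, a subunit of the elongation factor DSIF (-0.38). The RNA of the 11 genes tested at these 11 promoters differed by between -0.28 (Prelid2) and 0.19 (Ankrd24) on the log2 scale, and the lowest adjusted p was 0.81 (edgeR, Psmd12).

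**Figure D4:**
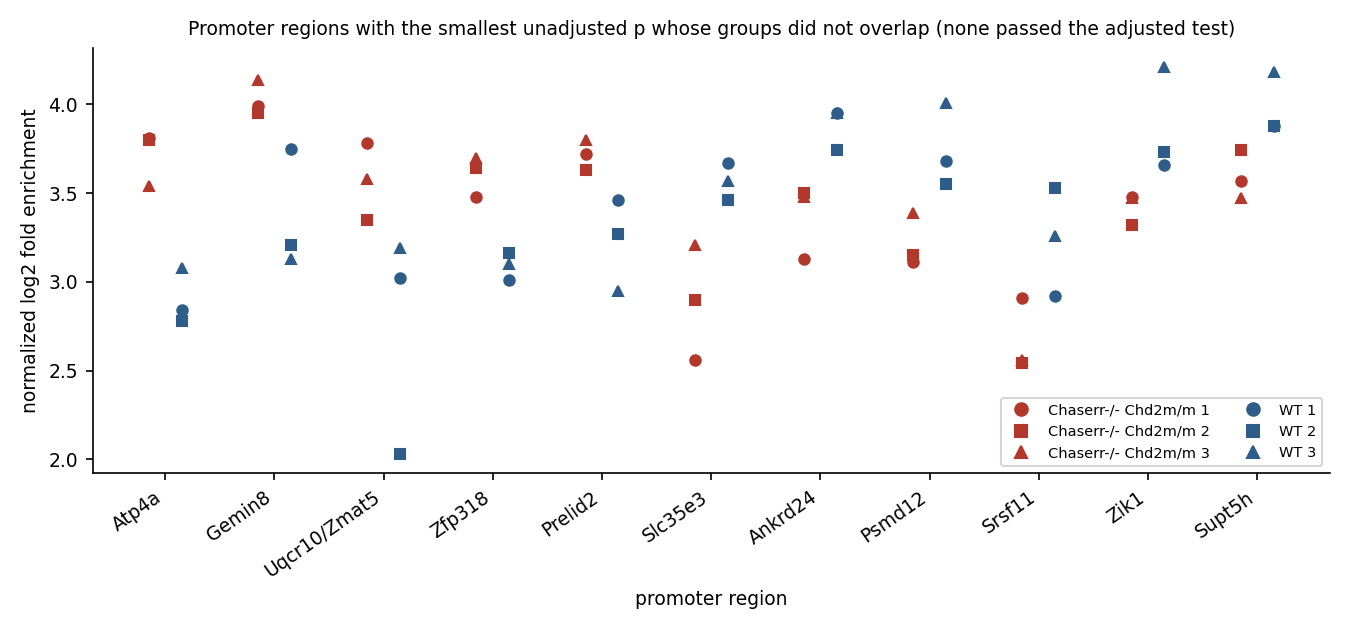
Normalized log2 fold enrichment of each library at 11 of the promoters with the smallest unadjusted p whose groups did not overlap, 5 higher (left) and 6 lower (right) in the double mutant. Colour gives the group and marker shape the replicate number, and none of the 11 passed the adjusted test.

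Away from promoters the same rule named 6 higher and 6 lower regions, each at an adjusted p of 1 (limma). The widest difference was at a region within a gene whose nearest start site, 19005 bases from the summit, was that of Dph5, an enzyme of diphthamide synthesis. Its fold enrichment was 4.11, 5.01 and 3.66 in the double mutant and 13.9, 9.53 and 4.96 in WT, a difference of -1.04 (SE 0.313). WT 3 was close to double mutant 2 there. Regions near Galnt5 (-0.68), Cbfa2t2, a transcriptional corepressor (-0.65), Nr1h4, the bile acid receptor (-0.57), Pros1 (-0.56) and Clcn4-2 (-0.56) were also lower. Near Gm16163 the fold enrichment was 7.02, 10.7 and 11.5 against 7.47, 3.56 and 6.07, a difference of 0.85 (SE 0.253). Other higher regions lay near Gm15663 (0.77), Gm10528 (0.65), Rfc3, a subunit of the replication clamp loader (0.65), Zfand5 (0.64) and E330009J07Rik (0.53).

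Presence and absence of peaks depended on which lists were short. A peak in all 3 double mutant lists and in no WT list was found in 150 regions (0.134%), and the reverse in 19 (0.0169%). Of the 150 regions 11 were promoters and 79 lay within genes, and of the 19 none was a promoter and 12 lay within genes. When every list was shortened to the 18483 peaks of the shortest by -log10 q, the counts became 75 (0.228%) and 81 (0.246%) of 32902 regions. The excess of the double mutant was thus absent from 6 lists of equal length. Without both short lists there were 5177 double mutant regions (4.75%) and 826 WT regions (0.757%), and after shortening the 4 long lists to equal length there were 2729 and 1937. With 2 lists a group the double mutant therefore had more such regions, also at equal length. Single libraries moved both counts. The double mutant count was 159 without WT 2, 5121 without double mutant 1 and 400 to 540 without any 1 of the other 4 libraries, and the WT count was 754 without WT 2 and 33 to 132 without any 1 of the other 5. Regions found in one group had a median -log10 q of 5.80 in the double mutant and 4.04 in WT. The median was 6.71 over all regions and 25.7 for regions in all 6 lists.

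**Figure D5:**
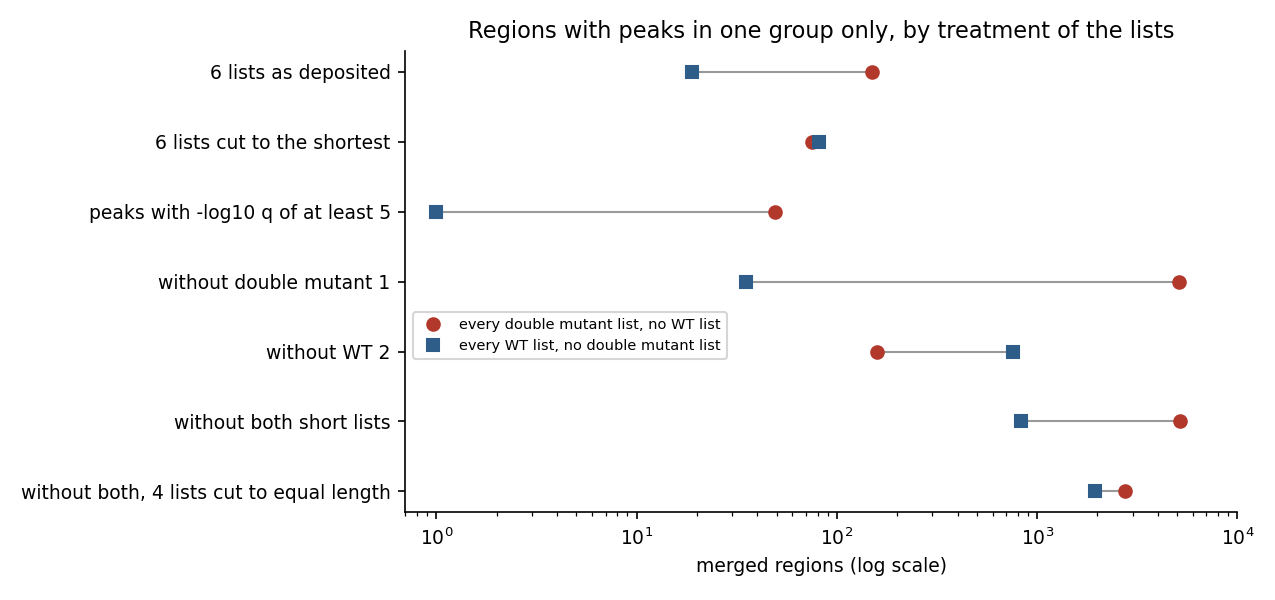
Number of merged regions with a peak in every double mutant list and no WT list (circles) or the reverse (squares), on a log axis, under 7 treatments of the lists. With the 6 lists cut to the shortest, the counts are 75 and 81, against 150 and 19 as deposited.

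Most of these regions also had peaks in other mEFs. The 6 lists of the other pregnancy held 58105 to 93306 peaks each. The share of all regions with a peak in them was not counted, so the shares below are not particular to these regions. Of the 150 double mutant regions, 117 (78.0%) had a peak in at least 1 WT list of the other pregnancy and 134 in at least 1 Chaserr-/- list, and 8 had none in those 6 lists. Of the 19 WT regions, 15 (78.9%) had a peak in at least 1 WT list of the other pregnancy and 3 had none in those 6 lists. Angpt1, which codes for the vessel growth factor angiopoietin-1, had one of these 3, with a WT fold enrichment of 4.47, 4.53 and 5.11 at a summit 625 bases from its start site.

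Among promoters, a region at an annotated start of Dnmt3b, a de novo DNA methyltransferase, had the highest score in the double mutant alone (mm9 chr2:153494403-153494873). Its summit lay within a gene, 421 bases from that start. Which Dnmt3b transcript begins there was not examined. The region's fold enrichment was 7.64, 12.5 and 10.5 in the double mutant with no WT peak. In the other pregnancy 1 WT list and 3 Chaserr-/- lists had a peak. Wnt5b, a Wnt ligand, had 6.5, 7.72 and 5.07, and 1 list of each other group had a peak. Trim69 had 4.71, 3.91 and 6.24, Dcun1d1, a cofactor of cullin neddylation, 4.49, 7.18 and 5.29, and Zfp219 4.68, 5.01 and 3.82. The peak at Dcun1d1 was in all 6 lists of the other groups. RNA of Dnmt3b, counted over the whole gene, was 11.1, 9.05 and 15.9 CPM in the double mutant and 10.4, 22.1 and 13.6 CPM in WT. The groups overlapped (log2 difference -0.37, edgeR, adjusted p = 0.765). Wnt5b (-0.65, adjusted p = 0.699), Dcun1d1 (-0.21, adjusted p = 0.594) and Zfp219 (-0.07, adjusted p = 0.969) were not called either.

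Outside promoters, the region nearest to Tbck had 9.4, 17 and 12 in the double mutant, was open in 2 WT lists of the other pregnancy and in no Chaserr-/- list. A region near Sept14 had 7.05, 14.5 and 13.4, and was the only one of these 5 that no WT list of either pregnancy held. Regions near Cecr2 (6.46, 17 and 15.2) and 4933407K13Rik on chromosome X (4.11, 15.8 and 11.6) were open in all 3 WT lists of the other pregnancy, and one near Gm11431 (5.29, 11.5 and 8.17) in 2. In each of these 5 regions double mutant 1, the short list, had the lowest fold enrichment. In WT alone, the region nearest to Cyb5r2 led with 7.33, 5.43 and 6.72, and it was open in all 6 lists of the other pregnancy. Grid1, a glutamate receptor gene (5.7, 6.28 and 3.55), 4930548K13Rik (5.02, 7.13 and 4.84) and Gm16234 (5.73, 5.18 and 5.53) followed, and each had a peak in at least 2 WT lists of the other pregnancy.

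Windows of 201 bases around 3 of these summits are shown, as the promoter with the highest score, a distal region absent from Chaserr-/- lists and the leading WT region: Dnmt3b (mm9 chr2:153494585-153494785, plus strand), the Tbck region (chr3:132410124-132410324, plus strand) and the Cyb5r2 region (chr7:114846028-114846228, plus strand). Capitals mark the CTCF core (AGGGGGC) and the AP-1 motif (TGANTCA) in the distal windows, where the TEAD (GGAATG) and RUNX (TGTGGT) motifs were searched on both strands as well. GC boxes, CCAAT, the CREB motif and the NRF1 motif were searched in the Dnmt3b window.
Dnmt3b: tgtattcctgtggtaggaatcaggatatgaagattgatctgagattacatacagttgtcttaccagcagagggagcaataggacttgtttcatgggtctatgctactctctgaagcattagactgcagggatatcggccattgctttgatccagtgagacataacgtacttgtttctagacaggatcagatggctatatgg
Tbck region: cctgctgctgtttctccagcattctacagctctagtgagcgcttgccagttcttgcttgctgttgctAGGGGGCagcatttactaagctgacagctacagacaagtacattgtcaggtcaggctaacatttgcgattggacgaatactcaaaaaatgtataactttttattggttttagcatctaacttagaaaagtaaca
Cyb5r2 region: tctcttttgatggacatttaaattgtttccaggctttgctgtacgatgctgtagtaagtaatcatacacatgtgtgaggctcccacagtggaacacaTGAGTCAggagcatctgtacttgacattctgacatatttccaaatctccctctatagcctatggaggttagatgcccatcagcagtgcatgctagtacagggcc
The Tbck window held 1 CTCF core and the Cyb5r2 window 1 AP-1 motif, with no TEAD or RUNX motif in either, and none of the promoter motifs was found in the Dnmt3b window. AP-1 motifs were in 35 of the 150 double mutant windows (23.3%) and in 4 of the 19 WT windows (21.1%), against 24.7% of all regions and 37.7% of the non-promoter regions open in every list. GC boxes were in 9 of 150 (6%) and in none of the 19. The median GC content was 48.8% and 46.8%, against 49.3% of all regions and 65.2% of promoters open in every list.

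Promoters that lie close behind a transcribed gene on the same strand were examined next, since Chd2 itself follows Chaserr. A close tandem gene had its 5′ end less than 2000 bases downstream of the end of a gene with a WT FPKM of at least 10. Chd2 was not in this set, since Chaserr is not named in the annotation and the next annotated gene ends 197147 bases upstream. Ctsk, 2046 bases behind Arnt, was not in it either. Of 326 close tandem genes, 135 (41.4%) had a promoter peak in all 6 lists, against 32.7% of all genes. Their median difference was -0.005 (quartiles -0.09 and 0.11), 50.4% lay below 0, and none was called (limma, 0 at an unadjusted p under 0.05). Over all 7674 genes tested the median was -0.001, 50.3% lay below 0 and 61 genes (0.795%) had an unadjusted p under 0.05. Genes more than 10000 bases behind their neighbour had a median of -0.003 (5974 genes). The median of close tandem promoters was thus near that of all genes.

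Among the close tandem genes, the lowest difference was that of Nop2, a ribosomal RNA methyltransferase gene 1292 bases behind the chromatin remodeller gene Chd4. Its fold enrichment was 6.24, 13 and 12.3 against 15.4, 10.4 and 10.7, a difference of -0.33 (SE 0.203) with overlapping groups. Mmp14, a membrane-bound matrix metalloproteinase behind Mrpl52, followed with -0.30, then Secisbp2 (-0.29), Fbxo22 (-0.28) and Bud13 (-0.27). The highest was Dyrk1b, a protein kinase gene 200 bases behind Fbl (fibrillarin), with 13.6, 17.5 and 13.8 against 15, 5.13 and 13.2 and a difference of 0.44 (SE 0.226). WT 2 alone was low there. Nit2 (0.39), Mdp1 (0.31), Nek3 (0.27) and Iah1 (0.27) came next. All 10 had an adjusted p of 1 (limma), and the lowest adjusted p of their RNA was 0.344 (edgeR, Iah1).

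The other loci named in the study gave no call in fold enrichment either. Tusc2, which lies 992 bases behind Rassf1, had a promoter fold enrichment of 11.3, 17.6 and 15.3 in the double mutant and of 15.4, 11.9 and 11.9 in WT, a difference of 0.09 (SE 0.165). Sumf2, a sulfatase modifying factor 1170 bases behind Cct6a, had 5.88, 10 and 17 against 18.6 and 12.5 in WT 1 and WT 3, with no peak in WT 2. Its RNA was 12, 10.2 and 15.8 CPM against 24, 23.2 and 21.9 CPM, with no overlap, but was not called (log2 difference -0.88, edgeR, adjusted p = 0.0787). Dapk3, a death-associated kinase 1411 bases behind Eef2, had no promoter peak in any list. The promoters of Cpt1c (carnitine palmitoyltransferase 1C, behind Prmt1), Ctsk (cathepsin K), Eef2 and Cnot2 were open only in the 4 long lists, where Ctsk had 6.11 and 6.26 in the double mutant and 7.35 and 6.01 in WT. Cct6a differed by 0.02, Rassf1 by -0.12, Actb by 0.07 and Chd1 by -0.12, each with an adjusted p of 1. In RNA, Ctsk was called as lower, at 15.2, 14.4 and 19.8 CPM against 36, 33.9 and 30.3 CPM in WT. Its log2 difference was -1.03 (edgeR, adjusted p = 0.0339), and the call was lost in 4 of 9 alternatives.

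Since no region passed the test of fold enrichment, the promoters of genes called in RNA are given as a description. In the RNA of the same genotypes 13 of 14076 genes passed (edgeR, 0.0924%), 7 higher and 6 lower, including Chd2 and Chaserr. With the replicate number as a block 75 passed (0.533%), 28 higher and 47 lower, and with DESeq2 221 of 13254 (1.67%), 101 higher and 120 lower. The RNA counts depended strongly on single libraries, with 3 genes called without double mutant 1, 4 without WT 1, 6 without WT 2, 50 without double mutant 3 and 201 without WT 3. Ccn2, a matricellular growth factor, had 571, 629 and 648 CPM against 309, 311 and 279 CPM (log2 difference 1.04, adjusted p = 0.00209), while its promoter had a fold enrichment of 4.99, 6.81 and 5.72 against 7.96, 4.61 and 6.17 and a difference of -0.11. Hbegf, an EGF receptor ligand, and Dusp5, a phosphatase of ERK, were higher in RNA (1.13 and 0.97) and differed by 0.11 and -0.08 at their promoters. Baiap2l1 and Arsk were lower in RNA (-1.04 and -1.08) and differed by 0.17 and -0.13 at their promoters. Ptgs2 (cyclooxygenase 2) lacked a peak only in WT 2, Epha2 and Ctsk lacked one in double mutant 1 and WT 2, and Ifi203 also in WT 3. Tnnc1, a troponin of muscle, and Mrc1, the mannose receptor of macrophages, had no promoter peak. Of the 17 macrophage genes 16 were lower in RNA in the double mutant, 1 of them called (Mrc1), and their summed level was 322 to 473 FPKM against 505 to 567 FPKM in WT. All 14 skeletal muscle genes were higher, 0 called (edgeR) and 11 with an unadjusted p under 0.05, with 508 to 644 FPKM against 363 to 457 FPKM. Neither pair of ranges overlapped. Of 19 fibroblast genes 16 were lower, 0 called and 10 with an unadjusted p under 0.05, at a median of -0.27 and with summed levels that overlapped (6393 to 6516 FPKM against 6274 to 7483 FPKM). Chondrocyte genes were higher in 9 of 11 (median 0.39), neural genes in 9 of 10 (0.32) and endothelial genes in 2 of 6 (-0.20), with 0 called. Over all genes 52.4% were lower and 1392 (9.89%) had an unadjusted p under 0.05. The part of these cell types in the RNA results was not tested. Across 6801 genes with both values, the promoter difference and the RNA difference had a Spearman correlation of -0.012, given as a description since genes are not replicates. The level of the WT promoter and WT FPKM were no more alike (0.005). Both values cover only genes with a promoter peak in all 6 lists, so genes with closed promoters were left out.

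Further gene groups gave 0 calls each (limma), and no member had an unadjusted p under 0.05, beside a median of -0.004 over all regions. Among 9 CHD remodeller genes, Chd1, Chd2 (at the Chd2-002 start), Chd6 and Chd9 were open in every list, with a median difference of -0.04, and Chd8 had no peak. Chd6 had a fold enrichment of 17.8, 16.9 and 12.1 against 17, 15 and 12.3, with the lowest value of each group in replicate 3. Of 16 p53 target genes 12 were tested, with a median of -0.06. Pmaip1, which codes for the proapoptotic protein NOXA, had 6.46, 13.3 and 13.3 against 8.6, 5.61 and 7.97, a difference of 0.45 (SE 0.22, unadjusted p = 0.0568 by limma), and Ccng1 had -0.07. Of 13 AP-1 and small Maf genes 7 were tested (median -0.06), from Fos at -0.26 to Jun at 0.06. Of 39 Hox genes 10 had no peak, and Hoxa3, Hoxb9 and Hoxa7 were among those tested, at -0.22, -0.19 and -0.15. The fibroblast genes ran from Twist1 (-0.27) to Vim (0.15), with a median of -0.05.

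The double mutant was finally set beside Chaserr-/- mEFs, which lack Chaserr on an intact Chd2 gene, by the difference between both effects over the 12380 regions with a peak in all 12 lists. Each mutant had its own WT libraries, from its own pregnancy. A difference between both effects cannot be told apart from a difference between the pregnancies. No region was called for the interaction (limma, 0%), and 377 (3.05%) had an unadjusted p under 0.05. Neither the double mutant effect nor the Chaserr-/- effect gave a call in this fit either, with 415 and 444 regions at an unadjusted p under 0.05. The study tested read counts with DESeq2 and reported changed regions in both mutants, with far fewer in the double mutant. Its measure and cutoff were unlike the adjusted test of fold enrichment used here, so the lack of calls does not bear on its counts. The promoter with the smallest interaction p was that of Psmd12. Its normalized level was 3.21, 3.25 and 3.48 in the double mutant, 3.76, 3.64 and 4.06 in its WT, 3.86, 3.74 and 3.69 in Chaserr-/- and 3.52, 3.38 and 3.55 in the WT of that pregnancy. It was thus lower in the double mutant (-0.51) and higher in Chaserr-/- (0.28), an interaction of -0.79 (SE 0.205, unadjusted p = 0.0011).

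The other promoters named by this rule failed the adjusted test in the same way (adjusted p = 1). Sept6, a septin gene on chromosome X, had 0.43 in the double mutant and -0.35 in Chaserr-/-, an interaction of 0.77 (SE 0.229). Pole4, a subunit of DNA polymerase epsilon (0.12 and -0.49), Il1rap, the interleukin-1 receptor accessory protein (0.35 and -0.29), Extl3 (0.16 and -0.41) and the shared promoter of Cpsf7 and Sdhaf2 (0.24 and -0.46) also stood higher in the double mutant effect. Smurf1, a ubiquitin ligase (-0.47 and 0.33), Rbmx, an RNA-binding protein (-0.41 and 0.33), Ccdc17 with C530005A16Rik (-0.38 and 0.24) and Ankrd24 (-0.48 and 0.11) stood lower. The Chd2-002 promoter had -0.05 and -0.19, an interaction of 0.14 (SE 0.264). Over the 135 close tandem genes the median was -0.003 in the double mutant and -0.054 in Chaserr-/-, where 50.4% and 68.9% lay below 0. Over all 7671 genes the medians were -0.001 and -0.056, with 50.1% and 65.1% below 0. At an unadjusted p under 0.05, 0 of the 135 close tandem genes were lower in the double mutant, against 63 of all genes (0.821%), and 6 (4.44%) were lower in Chaserr-/-, against 135 of all genes (1.76%). These shares were not compared by a test.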

How the data were processed

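ATAC-seq of 3 Chaserr-/- Chd2m/m and 3 WT mEF libraries of one pregnancy was analysed, with 6 libraries of another pregnancy and RNA-seq of E13.5 mEFs of the same genotypes (3 and 3) beside them. Per the study's methods, nuclei of cultured cells were used, reads were aligned to mm9 with Bowtie2 and peaks called with MACS2 in each library. The submitters' notes name mm9 and mm10 as builds, and tool versions are not given in the sources used here. The deposited lists give for each peak a fold enrichment (a ratio of summit signal to local background) and the -log10 of its q. They hold no read counts. For RNA, the authors deposited expected counts and FPKM made by RSEM on RefSeq genes, without normalization between libraries. The RNA titles give a Chd2+/m cross for the double mutant and a Chaserr+/- Chd2+/m cross for its WT, and the groups were joined by the set named in their descriptions. A WT set of the Chd2+/m cross was not used. Total expected counts were 10202129 to 16983370.

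Peaks on chromosomes 1 to 19 and X were merged over the lists where they overlapped by at least 1 base. Each region took the highest value of a list. Log2 fold enrichment was quantile normalized and fitted with limma 3.58.1 (trend, R 4.3.3), without covariates, over regions with a peak in every list. No pseudocount was needed. Benjamini-Hochberg adjustment covered all regions, at 0.05. Expected counts were rounded and tested with edgeR 4.0.16 (filterByExpr, TMM, quasi-likelihood), with DESeq2 1.42.0 as an alternative. Means over lists were compared by an exact permutation test. Scripts were tested on simulated data. Promoters were the 300 bases on either side of a GENCODE vM1 start site, an annotation in which Chaserr is not named. Of the 24990 RNA rows 93.8% were matched to a RefSeq gene symbol. The Chaserr 5′ end was placed with a cloning primer.

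Named regions were the study's loci, the 6 promoters and 6 other regions in each direction with the smallest unadjusted p and no overlap between groups (none being called, 1 promoter not reported here), up to 5 promoters and 5 others in 1 group alone with the highest -log10 q, and the 5 largest falls and rises among close tandem promoters and in the interaction. The members, lists and tests were chosen with earlier results of these data known. Alternatives were -log10 q in place of fold enrichment, median centring in place of quantile normalization, other filters and widths, leaving out each library and a replicate block. No 2 lists were copies of each other.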

Additional observations from a re-analysis of the deposited data

How the results depend on the processing

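No alternative gave a call in fold enrichment (limma), over all regions (97 to 1344 at an unadjusted p under 0.05), promoters (45 to 242) or the interaction (263 to 770). Their unadjusted share was at most 4.75%, below the 0.05 of the cutoff. The median of close tandem promoters stayed between -0.032 and 0.021. Same-numbered libraries were not paired: their deviations from the group means correlated at -0.125, -0.137 and 0.468 in ATAC-seq, and double mutant 1 was most like WT 2 (0.407) and double mutant 2 most like WT 1 (0.185). With the replicate block 0 regions were called (198 unadjusted, 80 at promoters), close tandem promoters had a median of -0.005, and 75 genes were called in RNA. There same-numbered libraries correlated at -0.0565, -0.0864 and 0.213, and double mutants 1 and 2 were most like WT 2 (0.217) and WT 1 (0.211), so the block joined 2 of 3 pairs that did not deviate together.

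Regions found in the double mutant alone numbered 75 at equal length, 49 with a -log10 q of at least 5, 5177 without the short lists and 2729 without them at equal length, and 159 to 5121 when 1 library was left out. For WT alone the counts were 81, 1, 826 and 1937, 42 with summits within 150 bases, and 33 to 754. Among single libraries left out, double mutant 1 (5121) and WT 2 (754), the short lists, gave the highest counts. The difference in peaks per list ran from -1806 to 31431 and that of the promoter share from -9.43 to 2.43 percentage points, each turning its direction without WT 2. RNA calls were 103 without a filter, 221 with DESeq2 and 3 to 201 when 1 library was left out.

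Of 462 values of 30 named regions 14 changed sign, none with a call: Chd2-002 (0.07 by -log10 q, -0.25 to 0.11 when 1 library was left out), Cct6a (-0.06 to 0.11), Rassf1 (-0.38 to 0.20) and Actb (-0.03 in at least 3 of 6 lists and without the short lists, -0.12 to 0.27), and without replicate 3 of both groups Cct6a (-0.03) and Tusc2 (-0.04). Of 117 values for the 13 RNA genes 34 lost the call, but none of Chaserr, Chd2 or Ccn2. Leaving out the short lists or replicate 3 of both groups, and list length as a term (428 unadjusted), were chosen after seeing the data. The causes were not tested.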

Other observations

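The strongest regions were shared. No filter for repeats or unreliable mapping was applied here, and the 3 regions named below lie 12986 to 264098 bases from the nearest start site. Whether they are open chromatin was not tested. Of 5275 regions with a -log10 q of at least 50 in some list, 4990 (94.6%) had a peak in every list, 190 lacked one in WT 2 alone, 41 in double mutant 1 alone and 27 in both. A further 7 lacked one in double mutant 3 and WT 3 and had one in the other 4 lists. One of these, on chromosome 13 with 2210408I21Rik as the nearest gene, had a fold enrichment of 49.2 and 58.9 in double mutants 1 and 2 and of 56 and 48 in WT 1 and 2. Another, nearest to Abcb11, a bile salt transporter gene, had 68.8 and 75.4 against 63.5 and 70.8. The region nearest to Chl1, a neural cell adhesion gene, had 68.6, 71.2 and 49.8 in the double mutant and 60.5, 68.9 and 49.6 in WT. Replicate 3 of both groups was lowest there too.

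Over the normalized values, double mutant 3 and WT 3 had a Pearson correlation of 0.832 across 12622 regions and double mutant 2 and WT 1 one of 0.827, above that of double mutants 2 and 3 (0.771) and of WT 1 and 3 (0.755). The regions share each library's depth, and the values are a description.

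Of all regions merged over the 6 lists, some were in both long double mutant lists and in neither long WT list. Their share was 4.06% to 6.57% by chromosome, with 4.26% on chromosome 7, which holds Chaserr and Chd2, and the highest share on X. The reverse was 0.563% to 0.844%. The long double mutant lists held more peaks (80419 and 81735) than the long WT lists (65020 and 65434).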
